A study of Mus musculus with 18 samples.

Results

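The genes described here are 44 genes of NF-kappaB and TNF signalling, taken by gene symbol from the annotation of the arrays. A gene was represented by its probe set that carried 1 symbol, and by the one of highest mean over the 18 arrays where it had several. This found 38 of the 44 genes among 19937 with such a probe set, and all 38 passed the filter on low values, which left 14003 genes to test. Nfkb1, Chuk, Traf3, Irak4, Ripk1 and Ripk2 had no probe set of 1 symbol and are not analysed here. The canonical set is therefore measured without p50's gene and the non-canonical set without Chuk and Traf3.

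All cells came from 8-week-old BALB/c mice, by collagenase digestion of the colon and sorting of MHC+CD11chigh lamina propria cells on the surface proteins CD103 and CD11b. The 6 groups were the CD103+CD11b- subset, the CD103+CD11b+ subset and the CD103-CD11b+ subset of mice without DSS in the array title, called untreated here, and the same subsets of mice under 2% dextran sulfate sodium (DSS), which damages the lining of the colon. Each group had 3 arrays, numbered by experiment: 1 to 3 untreated and 4 to 6 with DSS, with 1 array of every subset in each experiment. How many mice an array represents, and whether the replicates came from different animals, is not in the labels, so the p-values given here cover the spread among these arrays only. No experiment held both conditions, so experiment and DSS cannot be told apart.

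NF-kappaB is a family of paired transcription factors that wait in the cytoplasm and enter the nucleus when a receptor signals. In the canonical route, receptors such as the TNF receptors, the Toll-like receptors (TLR) and the IL-1 receptor activate a kinase complex (IKK) that marks the inhibitor IkappaB for destruction and frees Rela and Rel dimers. In the non-canonical route, receptors of the TNF family let the kinase NIK, encoded by Map3k14, build up; NIK drives the processing of the Nfkb2 product p100 to p52, the partner of Relb. NIK is kept low by a complex of Traf2, Traf3, Birc2 and Birc3. Many members of the pathway are themselves NF-kappaB targets, among them the inhibitors that end the signal. In dendritic cells and macrophages of the gut the pathway is known for linking the sensing of microbes and cytokines to cytokine production and to antigen presentation.

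The promoters below are shown because they carry, or lack, the letters that NF-kappaB dimers bind in genes whose levels are described next. Each line gives the last 100 bases before the RefSeq start of transcription on GRCm38.p6, 5′ to 3′ on the gene's strand, and capitals mark a match to the kappaB consensus on either strand. Tnip1 (chr11:54962941-54963040, minus strand), Nfkbia (chr12:55492648-55492747, minus strand) and Rel (chr11:23770970-23771069, minus strand) hold matches, as does the most upstream of 3 annotated starts of Nfkb2 (chr19:46304637-46304736, plus strand). Map3k14 (chr11:103267402-103267501, minus strand) and Birc3 (chr9:7873171-7873270, minus strand) hold none in this stretch or in the 250 bases searched.
Tnip1: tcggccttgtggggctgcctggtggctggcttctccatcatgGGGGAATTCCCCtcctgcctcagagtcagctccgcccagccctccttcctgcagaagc
Nfkb2: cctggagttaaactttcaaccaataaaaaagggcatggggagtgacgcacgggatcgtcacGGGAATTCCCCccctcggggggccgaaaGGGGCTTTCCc
Nfkbia: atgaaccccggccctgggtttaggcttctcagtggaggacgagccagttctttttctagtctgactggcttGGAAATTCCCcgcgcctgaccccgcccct
Rel: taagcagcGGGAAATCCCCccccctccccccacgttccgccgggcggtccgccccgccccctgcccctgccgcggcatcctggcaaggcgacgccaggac
Map3k14: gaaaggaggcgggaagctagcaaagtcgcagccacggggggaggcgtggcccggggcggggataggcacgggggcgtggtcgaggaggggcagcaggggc
Birc3: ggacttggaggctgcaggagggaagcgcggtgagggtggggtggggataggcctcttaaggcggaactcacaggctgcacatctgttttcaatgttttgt

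The Tnip1 capitals hold 3 overlapping matches, starting at -58, -57 and -56 from the start of transcription. In Nfkb2 the matches start at -39, -38 and -11, in Nfkbia at -29 and in Rel at -92 and -91. Over the 250 bases before each start, 12 of the 37 members with an entry in the promoter table held the kappaB consensus (32.4%), against 2225 of 27025 genes in that table (8.23%). Beside the 4 genes above, Cyld, Map3k7, Nfkbie, Tnfaip2, Tnfaip3, Bcl10, Irak1 and Traf3 held the consensus. A match is a description of these letters and no measure of binding.

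Replicate arrays correlated at 0.965 to 0.982 across probe sets. The sort genes followed the labels: Itgae, which encodes CD103, was 3.01 ± 0.13 (SE) log2 higher in untreated CD103+CD11b- cells than in CD103-CD11b+ cells, and Itgam, which encodes CD11b, differed by -2.79 ± 0.20. After DSS these differences were 2.17 ± 0.13 and -1.89 ± 0.20. With DSS, Itgae rose in the CD103-CD11b+ subset by 1.08 ± 0.13 (adjusted p 0.00103, limma), from a mean of 6.35 to 7.44, and the Itgam difference in CD103+CD11b- cells was 0.99 ± 0.20 (adjusted p 0.084), so the sort gene Itgae itself differed between the conditions compared. The 8 listed markers of cDC1, the type 1 conventional dendritic cell, were all higher in CD103+CD11b- cells than in CD103-CD11b+ cells, untreated and after DSS. Of 9 macrophage markers tested, 8 were called lower in untreated CD103+CD11b- cells than in CD103-CD11b+ cells, and the array mean of that list ran from 6.17 to 6.46 in the former and from 7.95 to 8.71 in the latter. Untreated CD103+CD11b+ cells lay between them, at 6.99 to 7.21, and the ranges after DSS were 6.70 to 6.73, 7.01 to 7.08 and 7.91 to 8.24 in the same order of subsets. The array mean over 14 tested markers of dendritic cell maturation ran, in that order, from 8.57 to 8.81, 9.12 to 9.16 and 8.70 to 8.84 untreated. After DSS it ran from 8.60 to 8.78, 8.94 to 8.98 and 8.83 to 8.98. The subsets therefore differ in their level of macrophage genes alongside every member difference given below. Untreated CD103+CD11b+ cells also differ from both other subsets in the level of maturation genes. The part of the dendritic cell, macrophage and maturation genes in the member differences was not tested. In RNA from sorted populations, fewer cells of a type and less RNA per cell cannot be told apart.

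The member differences called in both conditions were higher Relb, Map3k14 and Birc3 in CD103+CD11b- cells compared with CD103-CD11b+ cells, higher Tnip1 and lower Tnfrsf1b in CD103+CD11b- cells than in both other subsets, and higher Tnfrsf1a in CD103+CD11b- cells compared with CD103+CD11b+ cells. The 2 Tnfrsf1a calls (adjusted p 0.0402 and 0.0269, limma) were lost in 6 and 5 of 14 other settings. Relb and Map3k14 were also called in untreated mice with CD103+CD11b+ above CD103-CD11b+ cells, and these differences did not pass after DSS (adjusted p 0.0789 and 0.421, limma). Genes were called in limma at a Benjamini-Hochberg adjusted p under 0.05 over all genes tested. In untreated cells, CD103+CD11b- against CD103-CD11b+ called 8 of 38 members (21.1%), 4 higher and 4 lower, where 10.3% of all genes were called (5.01% higher and 5.32% lower). Against CD103+CD11b+ cells the CD103+CD11b- subset had 5 calls (13.2%), 2 higher and 3 lower, beside 6.86% of all genes (2.76% and 4.09%). CD103+CD11b+ against CD103-CD11b+ gave 3 higher and 0 lower (7.89%), beside 4.11% (2.36% and 1.75%). Leaving out untreated CD103-CD11b+ replicate 2 lowered the first count to 5, leaving out CD103+CD11b- replicate 1 or 2 or CD103+CD11b+ replicate 2 lowered the second to 3, and leaving out CD103+CD11b+ replicate 1 or CD103-CD11b+ replicate 2 lowered the third to 1.

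After DSS, CD103+CD11b- against CD103-CD11b+ called 5 members (13.2%), 4 higher and 1 lower, where 8.53% of all genes were called (4.19% and 4.34%). The CD103+CD11b- against CD103+CD11b+ comparison called 4 (10.5%), 3 higher and 1 lower, beside 5.96% (3.56% and 2.39%). Between CD103+CD11b+ and CD103-CD11b+ cells 1 member was called, lower in the former (2.63%), beside 1.58% (0.436% higher and 1.14% lower). The count of 4 fell to 2 without CD103+CD11b- or CD103+CD11b+ replicate 4 or 6, and the 1 call was lost without CD103+CD11b+ replicate 4 or 5 or any of CD103-CD11b+ replicates 4 to 6.

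Members whose 3 values in a group all lay on 1 side of the 3 in the other numbered 17, 14 and 14 of 38 in the untreated comparisons, in the order above (44.7%, 36.8% and 36.8%), where 22.6%, 22.0% and 17.4% of all genes did so. After DSS the counts were 15, 15 and 10 (39.5%, 39.5% and 26.3%), beside 24.6%, 22.8% and 16.5%. The median difference of the members was 0.07, -0.16 and 0.23 log2 in untreated cells, beside 0.01, -0.06 and 0.07 for all genes, with positive differences for 21, 7 and 29 of the 38 members. After DSS the medians were 0.04, 0.03 and -0.01, beside -0.01, 0.00 and -0.02, with 21, 21 and 18 positive. The share of members without overlap exceeded that of all genes in each of the 6 comparisons, and this excess was not tested.

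**Figure D1:**
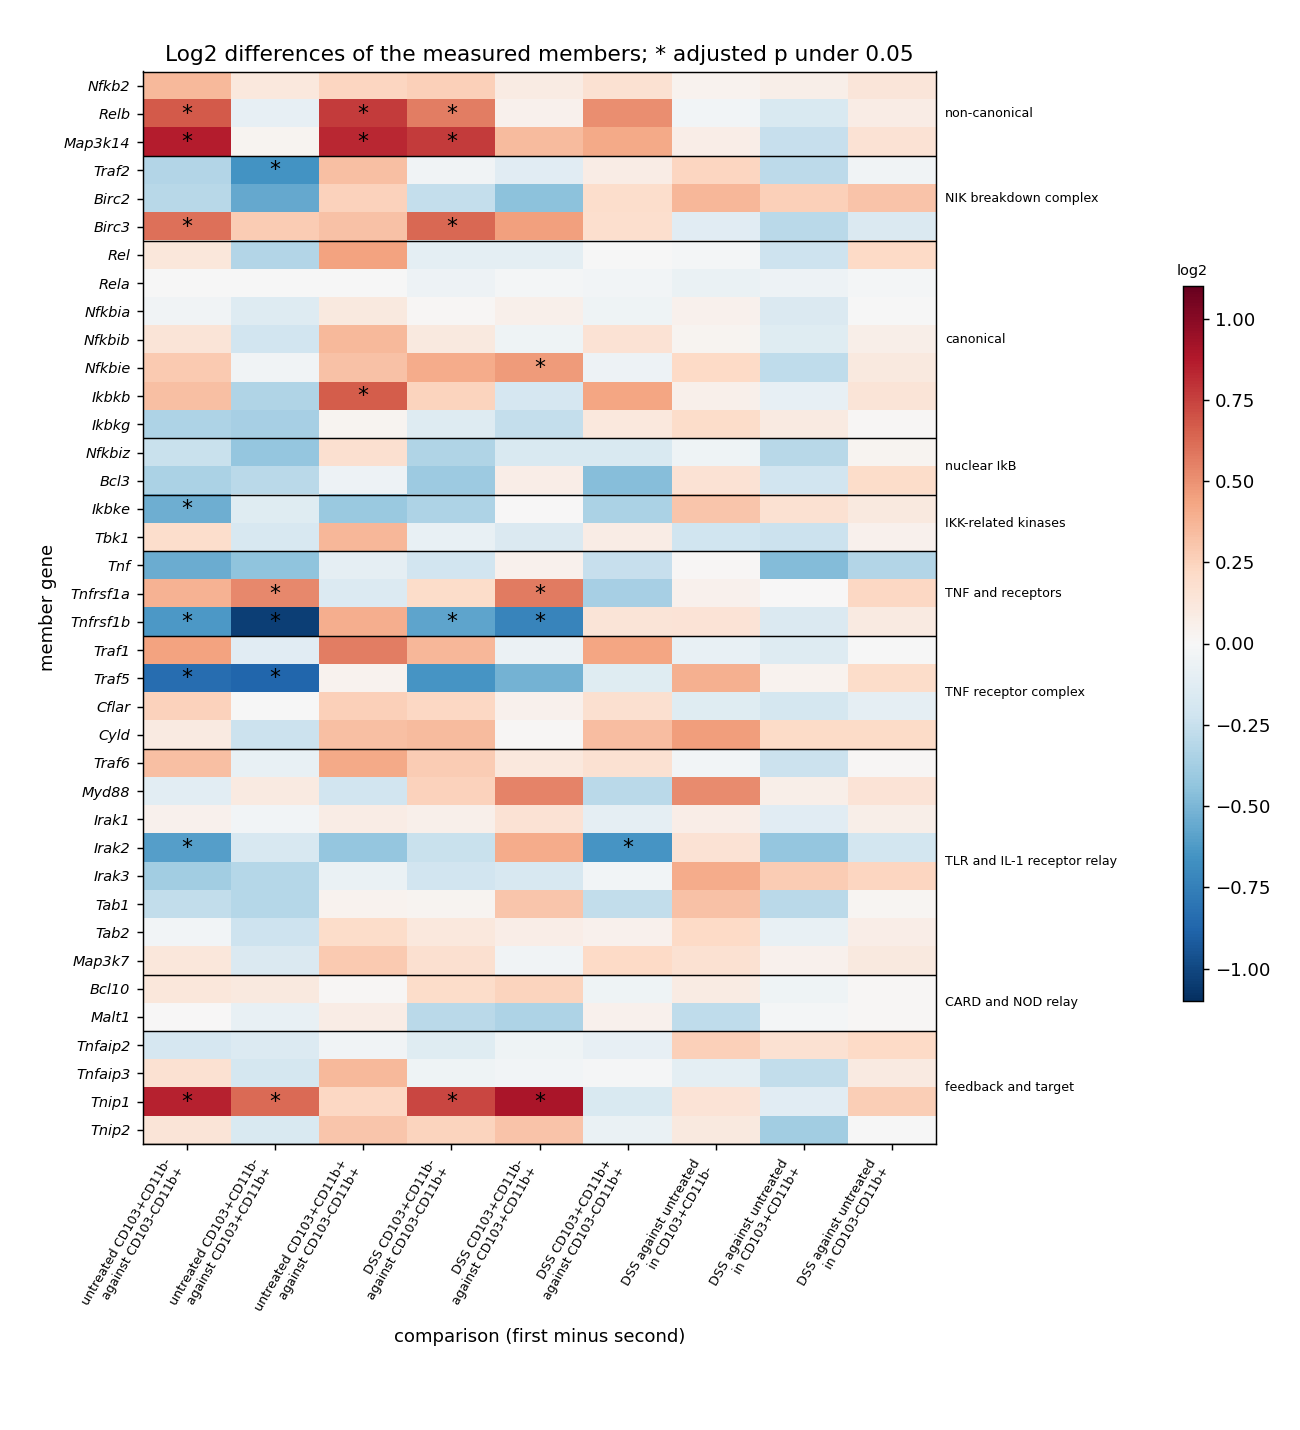
Colour gives the log2 difference (first minus second group) of each of the 38 measured members, by role, in the 6 comparisons of subsets and the 3 comparisons of DSS with untreated cells; an asterisk marks an adjusted p under 0.05 (limma). Calls lie in Relb, Map3k14, Tnip1 and Tnfrsf1b above all, and the 3 DSS columns hold none.

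Among the non-canonical members, Relb and Map3k14 were lower in CD103-CD11b+ than in the other subsets of untreated mice. Relb in CD103+CD11b- cells read 7.40, 7.17 and 7.19 in untreated mice and 7.48, 7.09 and 7.08 after DSS. Relb measured 7.37, 7.29 and 7.37 in CD103+CD11b+ cells without DSS and 7.10, 7.28 and 7.13 with it. For Relb, the CD103-CD11b+ arrays gave 6.74, 6.64 and 6.35 without and 6.56, 6.82 and 6.59 with DSS. In every condition the CD103-CD11b+ values of Relb, the dimer partner of p52, lay below all values of both CD103+ subsets, which overlapped each other. The log2 difference of untreated CD103+CD11b- over CD103-CD11b+ cells was 0.68 ± 0.14 (SE, adjusted p 0.00269, limma), and that of CD103+CD11b+ over CD103-CD11b+ was 0.77 ± 0.14 (adjusted p 0.00315). After DSS the first was 0.56 ± 0.14 (adjusted p 0.013), and the second, 0.51 ± 0.14, did not pass the test (adjusted p 0.0789). The DSS call was lost without CD103+CD11b- replicate 4 (difference 0.43, adjusted p 0.099), CD103-CD11b+ replicate 4 (0.51, 0.0657) or CD103-CD11b+ replicate 6 (0.53, 0.0583).

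Map3k14, the gene of NIK, was likewise lowest in CD103-CD11b+ cells. Map3k14 in CD103+CD11b- cells read 8.39, 8.32 and 8.44 in untreated mice and 8.65, 8.28 and 8.43 after DSS. For Map3k14, the CD103+CD11b+ arrays gave 8.50, 8.05 and 8.52 without and 8.20, 8.06 and 8.05 with DSS. Map3k14 measured 7.70, 7.04 and 7.83 in CD103-CD11b+ cells without DSS and 7.67, 7.80 and 7.59 with it. The CD103-CD11b+ values were the lowest in each condition, with untreated replicate 2 at 7.04 well below its fellows at 7.70 and 7.83. Untreated CD103+CD11b- cells exceeded CD103-CD11b+ cells by 0.86 ± 0.18 (1.82-fold, adjusted p 0.00266), and DSS cells by 0.77 ± 0.18 (adjusted p 0.00752). Untreated CD103+CD11b+ cells exceeded CD103-CD11b+ cells by 0.83 ± 0.18 (adjusted p 0.0109), a call that ended without CD103-CD11b+ replicate 2 (0.59, adjusted p 0.0575) or CD103+CD11b+ replicate 1 (0.76, adjusted p 0.0525). After DSS the same difference was 0.42 ± 0.18 and was not called (adjusted p 0.421).

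Nfkb2, whose product p100 is the precursor of p52, had the same direction with smaller differences. For Nfkb2, the CD103+CD11b- arrays gave 9.05, 9.26 and 9.24 without and 9.24, 9.18 and 9.23 with DSS. Nfkb2 in CD103+CD11b+ cells read 9.09, 8.96 and 9.13 in untreated mice and 9.09, 9.14 and 9.15 after DSS. Nfkb2 measured 8.98, 8.62 and 8.87 in CD103-CD11b+ cells without DSS and 8.99, 8.99 and 8.89 with it. The CD103+CD11b- values exceeded all CD103-CD11b+ values in untreated mice, by 0.35 ± 0.12 on average, and after DSS, by 0.26 ± 0.12, but neither difference was called (adjusted p 0.0655 and 0.238). Without untreated CD103-CD11b+ replicate 1 the first became 0.43 with an adjusted p of 0.0425.

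The 3 measured genes of the complex that breaks down NIK did not move together. Birc3 measured 8.14, 8.36 and 8.14 in CD103+CD11b- cells without DSS and 8.16, 8.16 and 7.95 with it. For Birc3, the CD103+CD11b+ arrays gave 8.05, 8.02 and 7.74 without and 7.86, 7.39 and 7.67 with DSS. Birc3 in CD103-CD11b+ cells read 7.49, 7.46 and 7.89 in untreated mice and 7.35, 7.48 and 7.54 after DSS. Birc3, a ubiquitin ligase of that complex and of the TNF receptor complex, was higher in CD103+CD11b- cells than in CD103-CD11b+ cells, by 0.60 ± 0.15 in untreated mice (adjusted p 0.0118) and by 0.63 ± 0.15 after DSS (adjusted p 0.00903), with no overlap. The untreated call was lost without CD103+CD11b- replicate 2 (0.53, adjusted p 0.0619), CD103-CD11b+ replicate 1 (0.54, 0.0546) or CD103-CD11b+ replicate 2 (0.53, 0.0586). Birc2, the close relative of Birc3, ran the other way in its chosen probe set. Its value was -0.31 ± 0.17 in that untreated comparison (adjusted p 0.347), and -0.56 ± 0.17 for CD103+CD11b- against CD103+CD11b+ cells (adjusted p 0.0538). The latter became -0.71 without untreated CD103+CD11b+ replicate 1 (adjusted p 0.0217). After DSS the chosen probe set of Birc2 gave -0.26 for CD103+CD11b- against CD103-CD11b+ cells and the other 0.04, so the sign there depends on the probe set.

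Traf2, the adaptor that brings these ligases to the receptor and to NIK, gave 4.65, 5.06 and 5.42 in untreated CD103+CD11b- cells and 5.48, 5.87 and 5.75 in CD103+CD11b+ cells. The groups did not overlap, and the difference of -0.65 ± 0.18 was called (adjusted p 0.0341). That call ended without CD103+CD11b- replicate 1 (-0.46, adjusted p 0.2) or 2 (-0.66, 0.0766), and without CD103+CD11b+ replicate 2 (-0.57, 0.137) or 3 (-0.63, 0.0819), and after a repeated quantile normalization (-0.62, 0.0527). After DSS the Traf2 values of all subsets lay between 5.00 and 5.54.

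**Figure D2:**
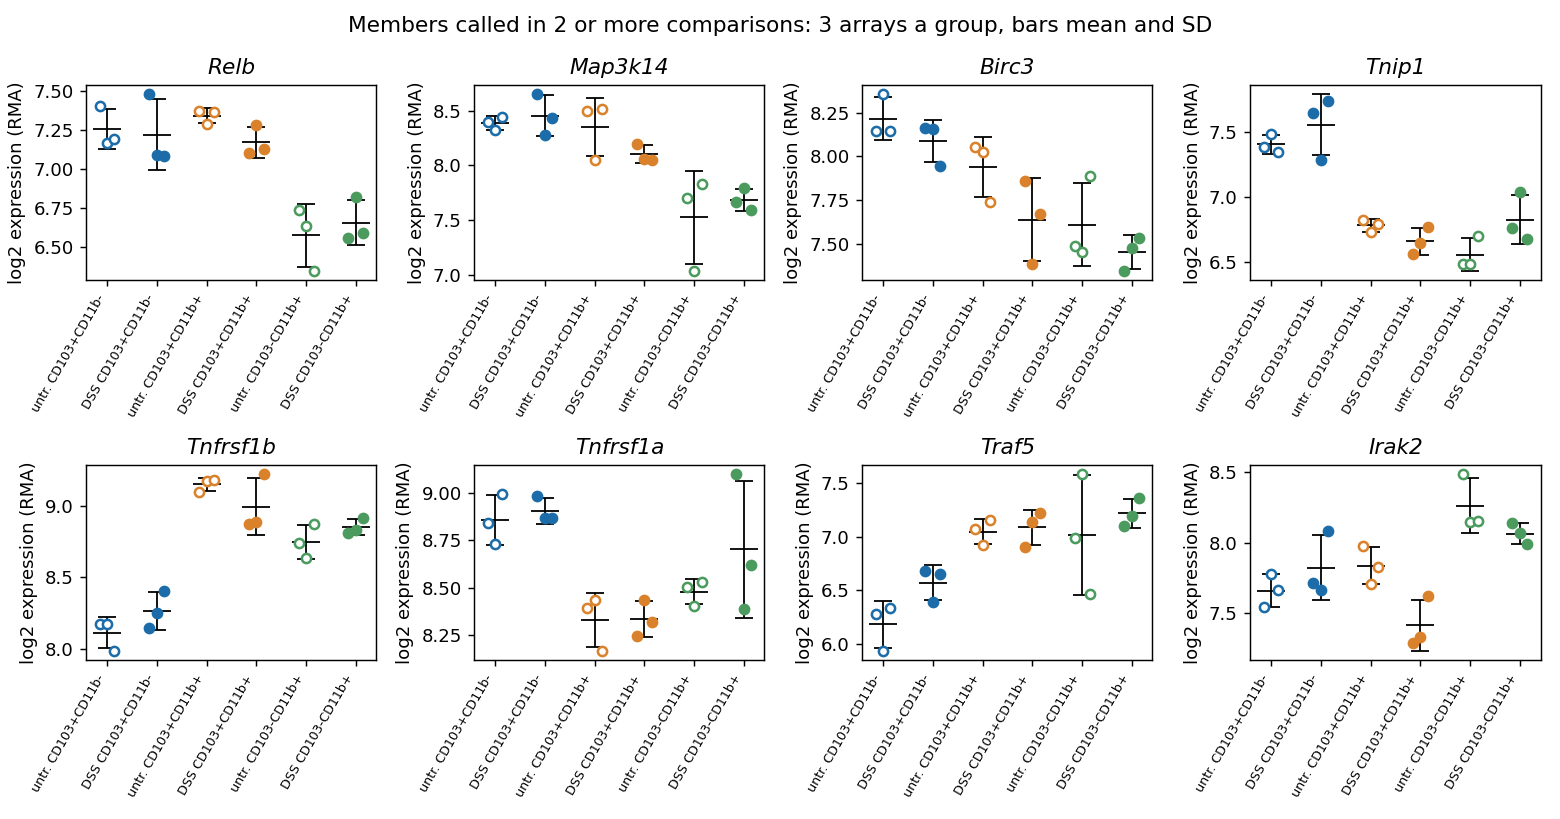
Log2 expression (RMA) of the 8 members called in at least 2 of the comparisons between 2 groups, with 1 point per array (open, untreated; filled, DSS), the group mean as a line and the SD as a bar (n = 3 arrays). Relb and Map3k14 are lowest in CD103-CD11b+ cells, while Tnip1 is highest and Tnfrsf1b and Traf5 are lowest in CD103+CD11b- cells.

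Of the 7 measured canonical members, Ikbkb and Nfkbie were called, each in 1 comparison of subsets. Rela measured 7.69, 7.75 and 7.99 in CD103+CD11b- cells without DSS and 7.79, 7.75 and 7.66 with it. Rela in CD103+CD11b+ cells read 7.94, 7.78 and 7.72 in untreated mice and 7.68, 7.69 and 7.90 after DSS. For Rela, the CD103-CD11b+ arrays gave 7.76, 7.82 and 7.87 without and 7.88, 7.78 and 7.72 with DSS. Rela, the main activating subunit, had overlapping values in all 6 comparisons of subsets, with differences of at most 0.06 log2 in size. Rel in CD103+CD11b- cells read 10.45, 10.51 and 10.63 in untreated mice and 10.48, 10.53 and 10.52 after DSS. Rel measured 10.86, 11.04 and 10.64 in CD103+CD11b+ cells without DSS and 10.67, 10.57 and 10.61 with it. For Rel, the CD103-CD11b+ arrays gave 10.49, 10.57 and 10.16 without and 10.72, 10.58 and 10.57 with DSS. Rel, the subunit best known for its role in lymphocytes and in Il12b transcription, was 0.44 ± 0.13 higher in untreated CD103+CD11b+ cells than in CD103-CD11b+ cells, without overlap, and was not called (adjusted p 0.0671). It passed without CD103+CD11b+ replicate 3 (0.55, adjusted p 0.0355). After DSS that difference was -0.01 ± 0.13.

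The IkappaB genes encode the cytoplasmic brakes of the canonical dimers. Nfkbia, the inhibitor that NF-kappaB itself induces, ran from 10.46 to 10.85 over the 18 arrays and overlapped in all comparisons of subsets. Nfkbib was 0.35 ± 0.12 higher in untreated CD103+CD11b+ cells than in CD103-CD11b+ cells, without overlap or a call (adjusted p 0.14). Nfkbie was called in 1 comparison: after DSS it read 9.49, 9.14 and 9.31 in CD103+CD11b- and 8.84, 8.83 and 8.87 in CD103+CD11b+ cells, a difference of 0.47 ± 0.13 (adjusted p 0.0355). This call did not hold with the experiment as a replicate block (adjusted p 0.0569), nor after a repeated quantile normalization (0.45, 0.0553), nor without CD103+CD11b- replicate 4 (0.38, 0.186) or 6 (0.47, 0.0956), nor without CD103+CD11b+ replicate 4 (0.46, 0.104), 5 (0.46, 0.105) or 6 (0.48, 0.0871). In untreated mice the corresponding groups overlapped.

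Of the kinase subunits, Ikbkb encodes the catalytic subunit of canonical signalling. It read 8.72, 8.47 and 8.82 in untreated CD103+CD11b+ and 8.12, 7.59 and 8.32 in CD103-CD11b+ cells, a difference of 0.66 ± 0.17 (adjusted p 0.0272). The lowest value, 7.59, belonged to CD103-CD11b+ replicate 2. Without it the difference was 0.45 (adjusted p 0.144), and the call was also lost without CD103+CD11b+ replicate 1 (0.63, 0.09) or 3 (0.59, 0.0915), and after a repeated quantile normalization (0.58, 0.099). The regulatory subunit gene Ikbkg ran from 4.46 to 5.17 over the 18 arrays and was not called in any comparison. Its difference between untreated CD103+CD11b- cells and CD103+CD11b+ cells, -0.37 ± 0.15, became -0.57 without CD103+CD11b+ replicate 3 (adjusted p 0.0156).

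**Figure D3:**
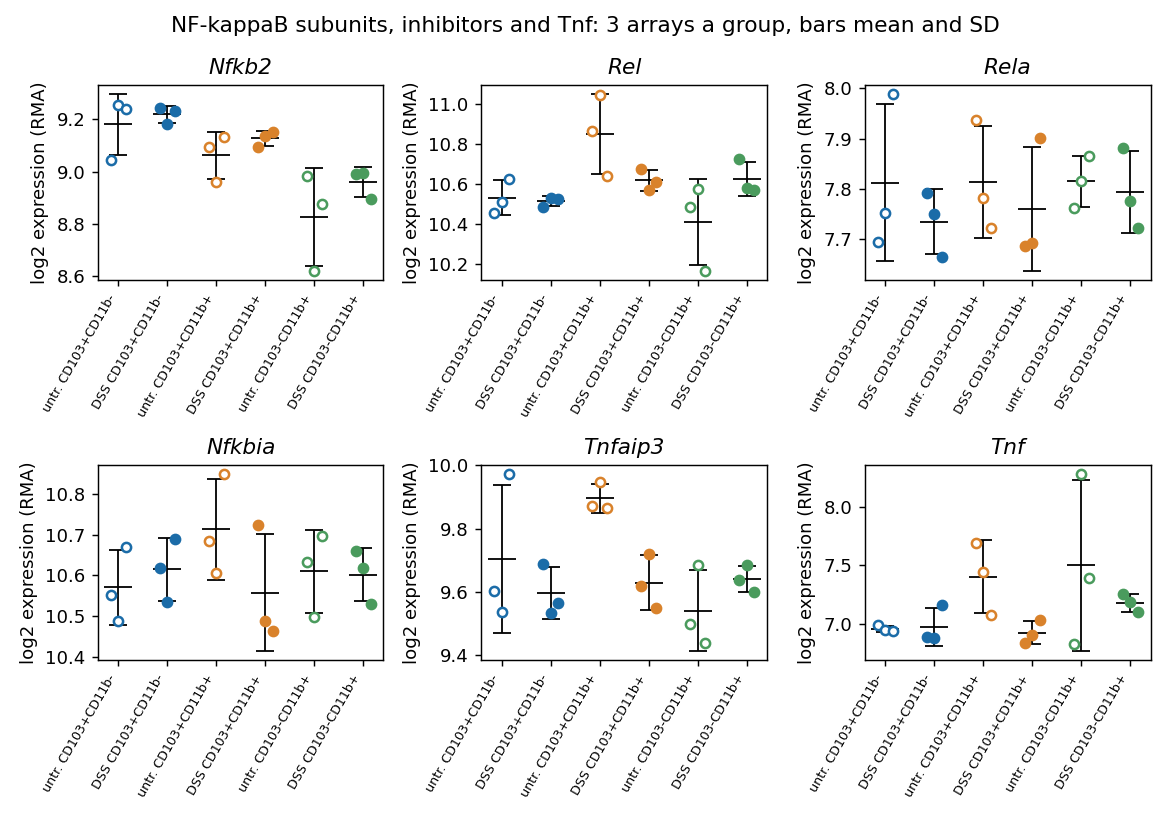
Log2 expression (RMA) of 3 NF-kappaB subunit genes, the inhibitor genes Nfkbia and Tnfaip3, and Tnf, with 1 point per array (open, untreated; filled, DSS), the group mean as a line and the SD as a bar (n = 3 arrays). Rela and Nfkbia overlap between the subsets of each condition, and Tnf spreads from 6.83 to 8.28 in untreated CD103-CD11b+ cells.

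Set against each other, 2 of the 3 measured non-canonical members and 0 of the 7 canonical ones were called between untreated CD103+CD11b- cells and CD103-CD11b+ cells (limma; 2 canonical members, Nfkbie and Ikbkg, at an unadjusted p under 0.05), where 10.3% of all genes were called. At that share a count of 0 among 7 genes does not set the canonical members apart. The median difference was 0.68 log2 for the non-canonical and 0.12 for the canonical members. After DSS the counts were the same, beside 8.53% of all genes, and the medians 0.56 and 0.01. Between CD103+CD11b+ and CD103-CD11b+ cells the medians were 0.77 and 0.32 in untreated mice, with 2 and 1 calls beside 4.11% of all genes, and 0.42 and -0.01 after DSS, with none in limma beside 1.58% (2 non-canonical members and 1 canonical at an unadjusted p under 0.05). Between the CD103+ subsets the non-canonical medians were 0.03 and 0.09 and the canonical ones -0.21 and -0.05, untreated and after DSS. A median of 3 genes is the value of 1 of them. The non-canonical medians of 0.68, 0.56 and 0.77 are the differences of Relb, and 0.42 is that of Map3k14. Members are not replicates, so these sets carry no p.

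The same contrast can be read in each array, as the median deviation of the non-canonical members from their means over the 18 arrays less that of the canonical members. CD103+CD11b- arrays gave 0.40, 0.27 and 0.14 in untreated mice and 0.44, 0.16 and 0.15 after DSS. CD103-CD11b+ arrays gave -0.19, -0.34 and -0.21, and -0.47, -0.18 and -0.43. All 6 values of the former subset were above 0 and all 6 of the latter below it. CD103+CD11b+ arrays lay on both sides, at 0.06, -0.15 and 0.28 before and -0.02, 0.10 and 0.03 after DSS. The SD within groups was 0.143. The deviations are taken from means over these same 18 arrays, so 0 is no outside reference. These values restate the member differences given above and add no separate evidence.

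The choice of set matters here. The gap between the set medians was 0.56 log2 for untreated CD103+CD11b- against CD103-CD11b+ cells and 0.36 once Traf2, Birc2 and Birc3 were counted as non-canonical, and 0.55 and 0.40 after DSS. For untreated CD103+CD11b+ against CD103-CD11b+ cells it went from 0.44 to 0.0064, and after DSS from 0.42 to 0.20. Leaving out untreated CD103-CD11b+ replicate 2 lowered the value of 0.44 to 0.28, and leaving out untreated CD103+CD11b+ replicate 2 lowered the gap between the untreated CD103+ subsets from 0.24 to 0.10.

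**Figure D4:**
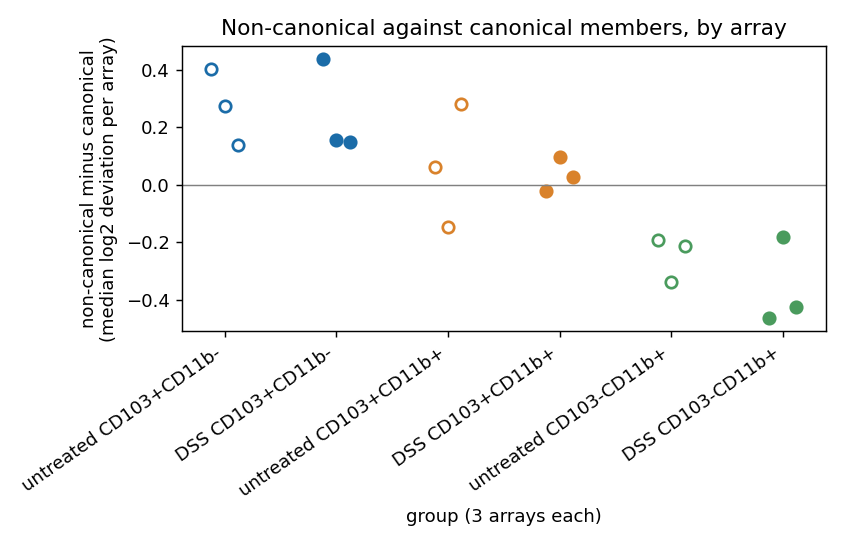
Median log2 deviation of the 3 non-canonical members from their means over the 18 arrays, less the same median of the 7 canonical members, with 1 point per array (open, untreated; filled, DSS). CD103+CD11b- arrays lie from 0.14 to 0.44, CD103+CD11b+ arrays on both sides of 0, and CD103-CD11b+ arrays from -0.47 to -0.18.

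The nuclear IkappaB genes Nfkbiz and Bcl3, whose products modify transcription at NF-kappaB sites, were not called in any comparison. Nfkbiz was 0.42 ± 0.14 lower in untreated CD103+CD11b- cells than in CD103+CD11b+ cells without overlap (adjusted p 0.0831), and this difference passed without CD103+CD11b+ replicate 3 (-0.55, adjusted p 0.0252). For Bcl3, CD103+CD11b- values lay below CD103-CD11b+ values in both conditions, by 0.35 ± 0.17 and 0.40 ± 0.17. Of the IKK-related kinases, which serve interferon induction, Ikbke read 4.51, 4.50 and 4.38 in untreated CD103+CD11b- and 4.83, 5.08 and 5.09 in CD103-CD11b+ cells, a difference of -0.54 ± 0.14 (adjusted p 0.0139). The call ended without CD103+CD11b- replicate 3 (-0.50, adjusted p 0.0618) or CD103-CD11b+ replicate 2 (-0.50, 0.054) or 3 (-0.50, 0.0521). Its relative Tbk1 was not called.

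Of the TNF receptor genes, Tnfrsf1b, which encodes the receptor TNFR2, was lowest in CD103+CD11b- cells. Tnfrsf1b in CD103+CD11b- cells read 8.18, 8.18 and 7.99 in untreated mice and 8.15, 8.25 and 8.41 after DSS. For Tnfrsf1b, the CD103+CD11b+ arrays gave 9.10, 9.17 and 9.18 without and 8.87, 8.89 and 9.22 with DSS. Tnfrsf1b measured 8.74, 8.63 and 8.87 in CD103-CD11b+ cells without DSS and 8.81, 8.83 and 8.92 with it. No CD103+CD11b- value reached any value of another subset. In untreated mice the difference from CD103+CD11b+ cells was -1.03 ± 0.13 (2.04-fold, adjusted p 1.49e-05) and that from CD103-CD11b+ cells -0.63 ± 0.13 (adjusted p 0.00183). After DSS these were -0.72 ± 0.13 (adjusted p 0.000801) and -0.58 ± 0.13 (adjusted p 0.00436). All 4 calls held whichever array was left out.

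Tnfrsf1a, the gene of the widely expressed receptor TNFR1 with its death domain, went the other way between the CD103+ subsets. For Tnfrsf1a, the CD103+CD11b- arrays gave 8.84, 8.73 and 8.995 without and 8.99, 8.87 and 8.87 with DSS. Tnfrsf1a measured 8.39, 8.43 and 8.17 in CD103+CD11b+ cells without DSS and 8.25, 8.44 and 8.32 with it. Tnfrsf1a in CD103-CD11b+ cells read 8.50, 8.41 and 8.53 in untreated mice and 9.10, 8.39 and 8.62 after DSS. CD103+CD11b- values lay above all CD103+CD11b+ values, by 0.53 ± 0.15 in untreated mice (adjusted p 0.0402) and by 0.57 ± 0.15 after DSS (adjusted p 0.0269). CD103-CD11b+ cells overlapped CD103+CD11b- cells only after DSS, where replicate 4 read 9.10. The untreated call ended without CD103+CD11b- replicate 1 (0.53, adjusted p 0.0961) or 3 (0.46, 0.165) or without CD103+CD11b+ replicate 1 (0.56, 0.0742), 2 (0.58, 0.06) or 3 (0.45, 0.127). The DSS call ended without CD103+CD11b- replicate 4 (0.53, 0.111), 5 (0.59, 0.0615) or 6 (0.59, 0.0653) or CD103+CD11b+ replicate 4 (0.53, 0.114) or 6 (0.57, 0.0836).

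Tnf, the cytokine gene itself, was the most variable member in untreated CD103-CD11b+ cells. Tnf measured 6.99, 6.95 and 6.94 in CD103+CD11b- cells without DSS and 6.89, 6.87 and 7.16 with it. For Tnf, the CD103+CD11b+ arrays gave 7.69, 7.45 and 7.07 without and 6.83, 6.91 and 7.03 with DSS. Tnf in CD103-CD11b+ cells read 6.83, 8.28 and 7.39 in untreated mice and 7.26, 7.19 and 7.10 after DSS. Replicate 2 of the untreated CD103-CD11b+ cells, at 8.28, was the highest of the 18 arrays and replicate 1, at 6.83, among the lowest. Tnf was not called in any comparison. Its largest difference, -0.54 ± 0.24 for untreated CD103+CD11b- against CD103-CD11b+ cells (adjusted p 0.206), became -0.88 without CD103-CD11b+ replicate 1 (adjusted p 0.0111).

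In the complex that forms at the TNF receptors, Traf5, an adaptor of several TNF family receptors, was lower in CD103+CD11b- cells. Traf5 in CD103+CD11b- cells read 6.28, 5.93 and 6.33 in untreated mice and 6.68, 6.39 and 6.65 after DSS. Traf5 measured 7.07, 6.92 and 7.15 in CD103+CD11b+ cells without DSS and 6.91, 7.14 and 7.22 with it. For Traf5, the CD103-CD11b+ arrays gave 6.99, 7.59 and 6.47 without and 7.10, 7.19 and 7.36 with DSS. Against untreated CD103+CD11b+ cells the difference was -0.87 ± 0.20 (1.83-fold, adjusted p 0.0101), and against CD103-CD11b+ cells -0.83 ± 0.20 (adjusted p 0.0102). The former was not called without CD103+CD11b- replicate 2 (-0.75, adjusted p 0.0592). The latter was lost without that array (-0.71, 0.063) and without CD103-CD11b+ replicate 2, which read 7.59 (-0.55, 0.0645). After DSS the differences were -0.52 ± 0.20 and -0.65 ± 0.20, still without overlap, and were not called (adjusted p 0.19 and 0.0562).

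Of its other members, Traf1, an adaptor that NF-kappaB induces, was higher in both untreated CD103+ subsets than in CD103-CD11b+ cells without overlap, by 0.44 ± 0.17 and 0.57 ± 0.17, and was not called (adjusted p 0.134 and 0.0768). The untreated CD103-CD11b+ arrays read 8.67, 8.04 and 8.70. Replicate 2, the lowest, was also the lowest of its group for Map3k14 and Ikbkb and the highest for Tnf and Traf5. After DSS, CD103-CD11b+ replicate 5, at 8.83, overlapped both CD103+ subsets in Traf1. Cflar, which restrains caspase-8, and Cyld, which removes ubiquitin chains, were not called between subsets. The chosen probe set of Cflar and its other 2 differed in sign in 3 comparisons of subsets, with 0.17 against -0.07 and 0.21 for CD103+CD11b+ over CD103-CD11b+ cells after DSS. Between the CD103+ subsets they gave -0.01, -0.09 and 0.06 untreated and 0.05, 0.21 and -0.01 after DSS.

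In the relay from the TLR and IL-1 receptors, Irak2, a kinase family member that carries signal from Myd88 to Traf6, had its highest mean in CD103-CD11b+ cells. For Irak2, the CD103+CD11b- arrays gave 7.54, 7.78 and 7.66 without and 7.72, 7.67 and 8.09 with DSS. Irak2 in CD103+CD11b+ cells read 7.98, 7.71 and 7.83 in untreated mice and 7.29, 7.33 and 7.62 after DSS. Irak2 measured 8.49, 8.15 and 8.15 in CD103-CD11b+ cells without DSS and 8.14, 8.07 and 7.99 with it. In untreated mice CD103+CD11b- cells were 0.60 ± 0.14 lower than CD103-CD11b+ cells (adjusted p 0.0092). After DSS the call was between the CD11b+ subsets, with CD103+CD11b+ cells at -0.65 ± 0.14 (adjusted p 0.0252). The untreated call ended without CD103+CD11b- replicate 1 (-0.54, adjusted p 0.0502) or CD103-CD11b+ replicate 1 (-0.49, 0.059). The DSS call ended without CD103+CD11b+ replicate 4 (-0.59, 0.137) or 5 (-0.61, 0.113) or CD103-CD11b+ replicate 4 (-0.61, 0.115), 5 (-0.65, 0.0659) or 6 (-0.69, 0.0683).

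The other 7 measured genes of this relay, Traf6, Myd88, Irak1, Irak3, Tab1, Tab2 and Map3k7, were not called between subsets. Myd88, the shared adaptor of most TLRs, was 0.55 ± 0.19 higher in CD103+CD11b- cells than in CD103+CD11b+ cells after DSS without overlap (adjusted p 0.101). Traf6, the ubiquitin ligase of the relay, passed between untreated CD103+CD11b+ cells and CD103-CD11b+ cells only without CD103-CD11b+ replicate 1 (0.57, adjusted p 0.0435). Bcl10 and Malt1, which link CARD proteins to IKK, stayed between 7.02 and 7.48 and between 8.89 and 9.74 and were not called.

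Among the feedback genes, Tnip1, which encodes a ubiquitin-binding partner of A20, was higher in CD103+CD11b- cells than in both other subsets. Tnip1 in CD103+CD11b- cells read 7.39, 7.49 and 7.35 in untreated mice and 7.65, 7.29 and 7.74 after DSS. Tnip1 measured 6.83, 6.73 and 6.80 in CD103+CD11b+ cells without DSS and 6.56, 6.65 and 6.77 with it. For Tnip1, the CD103-CD11b+ arrays gave 6.49, 6.49 and 6.70 without and 6.76, 7.04 and 6.68 with DSS. All 6 CD103+CD11b- values, 7.29 to 7.74, lay above all 12 others, 6.49 to 7.04. In untreated mice the difference was 0.85 ± 0.14 from CD103-CD11b+ cells (1.80-fold, adjusted p 0.000229) and 0.62 ± 0.14 from CD103+CD11b+ cells (adjusted p 0.0058). After DSS it was 0.73 ± 0.14 (adjusted p 0.00116) and 0.90 ± 0.14 (adjusted p 0.000196). These 4 calls held whichever array was left out.

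Tnfaip3, the gene of A20 itself, a ubiquitin-editing brake on the pathway and a classical NF-kappaB target, had no such pattern. For Tnfaip3, the CD103+CD11b- arrays gave 9.60, 9.54 and 9.97 without and 9.69, 9.53 and 9.56 with DSS. Tnfaip3 measured 9.87, 9.95 and 9.87 in CD103+CD11b+ cells without DSS and 9.62, 9.72 and 9.55 with it. Tnfaip3 in CD103-CD11b+ cells read 9.50, 9.68 and 9.44 in untreated mice and 9.64, 9.68 and 9.60 after DSS. Untreated CD103+CD11b+ cells lay above CD103-CD11b+ cells without overlap, by 0.36 ± 0.13, and this was not called (adjusted p 0.141). After DSS the 3 subsets overlapped. Tnip2, a relative of Tnip1, and Tnfaip2, a TNF-induced gene, were not called between subsets.

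With DSS, 0 of the 38 members were called in any subset (limma), beside 0.129% of all genes in CD103+CD11b-, 0.0857% in CD103+CD11b+ and 0.1% in CD103-CD11b+ cells. At an unadjusted p under 0.05 there were 6 members in CD103+CD11b- cells (15.8%, beside 6.08% of all genes), 6 in CD103+CD11b+ cells (15.8%, beside 10.1%) and 0 in CD103-CD11b+ cells (beside 7.67%). Groups did not overlap for 10, 10 and 3 members (26.3%, 26.3% and 7.89%), where 12.3%, 15.5% and 11.5% of all genes did not. The lowest adjusted p was 0.664 for Myd88 in CD103+CD11b- cells, 0.326 for Irak2 in CD103+CD11b+ cells and 0.668 for Tnip1 in CD103-CD11b+ cells. Over the members, the 95% intervals of the DSS changes reached from -0.62 to 0.91 log2 in CD103+CD11b- cells. They reached from -0.98 to 0.70 in CD103+CD11b+ and from -0.82 to 0.67 in CD103-CD11b+ cells. Each interval is for 1 gene and is not widened for the number of members. The intervals cover the spread among these arrays only and do not separate DSS from experiment, so they do not bound an effect of DSS.

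In CD103+CD11b- cells the 6 members were Ikbke (0.30 ± 0.14), Tnfaip2 (0.26 ± 0.12), Birc2 (0.36 ± 0.17), Myd88 (0.52 ± 0.19), Tab1 (0.32 ± 0.12) and Cyld (0.46 ± 0.16), all with higher means after DSS. Myd88 read 6.89, 6.88 and 7.65 in untreated and 7.56, 7.77 and 7.65 in DSS cells, and its groups overlapped through untreated replicate 3. In CD103+CD11b+ cells the 6 were Nfkbie (-0.28 ± 0.13), Nfkbiz (-0.31 ± 0.14), Tnfaip3 (-0.27 ± 0.13), Tnip2 (-0.38 ± 0.14), Irak2 (-0.42 ± 0.14) and Tab1 (-0.29 ± 0.12), all with lower means after DSS. None of these 12 differences was called.

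Over all members the signs differed by subset. The DSS difference was positive for 27 of 38 members in CD103+CD11b- cells, for 11 in CD103+CD11b+ cells and for 29 in CD103-CD11b+ cells, with medians of 0.08, -0.14 and 0.08 log2. The medians over all genes had the same signs, at 0.02, -0.06 and 0.03. The difference of the DSS change between the CD103+ subsets was positive for 35 of 38 members, with a median of 0.18 beside 0.08 for all genes, and that between CD103+CD11b+ and CD103-CD11b+ cells was negative for 34, with a median of -0.18 beside -0.09. These 2 comparisons share the CD103+CD11b+ arrays. After a repeated quantile normalization their medians over all genes were 0.02 and -0.03. The share of all genes with each sign was not computed. No gene of the array was called in any of the 3 interactions (0% of all genes each, limma). At an unadjusted p under 0.05 there were 0, 4 and 2 members, beside 3.64%, 4.83% and 5.56% of all genes, for CD103+CD11b- against CD103-CD11b+, CD103+CD11b- against CD103+CD11b+ and CD103+CD11b+ against CD103-CD11b+ cells. The 4 were Nfkbie (0.50 ± 0.18), Tnip2 (0.49 ± 0.20), Irak2 (0.59 ± 0.20) and Tab1 (0.61 ± 0.18, adjusted p 0.983), and the 2 were Rel (-0.45 ± 0.18) and Nfkbie (-0.38 ± 0.18).

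**Figure D5:**
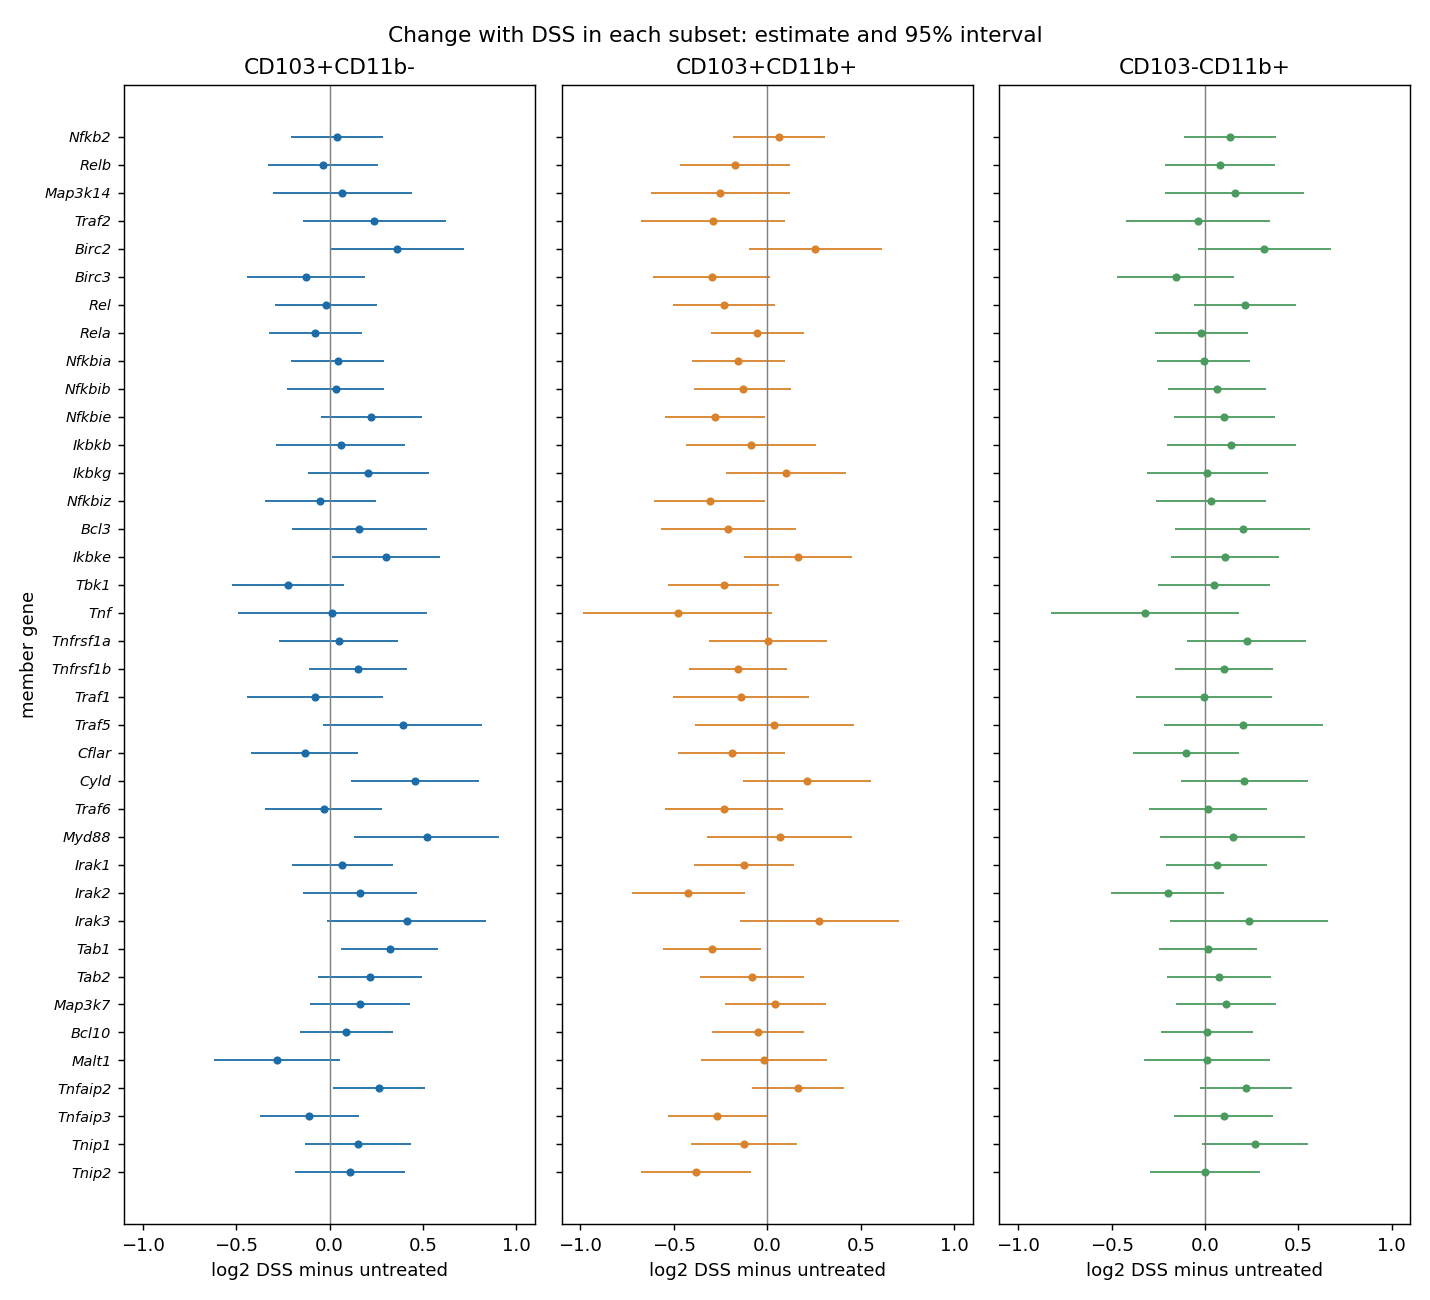
Log2 difference of DSS minus untreated cells for the 38 measured members in each subset, as a point with its 95% interval from limma (3 against 3 arrays). Most points lie right of 0 in CD103+CD11b- and CD103-CD11b+ cells and left of it in CD103+CD11b+ cells, and no member passed the test.

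Averaged over the subsets of an experiment, with 3 untreated against 3 DSS experiments, 0 members were called in limma, beside 0.186% of all genes. At an unadjusted p under 0.05 there were 8 (21.1%, beside 10.5% of all genes). Birc2 had the lowest p, at 0.31 ± 0.09 (adjusted p 0.265). The second probe set of Birc2 gave -0.27 and -0.10 for the DSS change in CD103+CD11b+ and CD103-CD11b+ cells, where the chosen set gave 0.26 and 0.32, so the direction of Birc2 depends on the probe set. The canonical and non-canonical medians were close, at 0.04 and 0.04 in CD103+CD11b-, -0.13 and -0.17 in CD103+CD11b+ and 0.06 and 0.13 in CD103-CD11b+ cells.

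Markers of other cells differed between the same untreated and DSS groups. The array mean over 7 tested neutrophil markers of 10 listed ran from 4.09 to 4.76 in untreated and from 4.74 to 5.69 in DSS cells, with Retnlg called in CD103+CD11b- cells (1.33 ± 0.25, adjusted p 0.0413) and in CD103+CD11b+ cells (1.44 ± 0.25, adjusted p 0.0282). Cxcr2, Ngp and Ltf did not pass the filter on low values. The tested genes of this list did not rise alike. Group means of S100a8 ran from 4.16 to 4.51 in untreated and from 5.92 to 6.21 in DSS cells. Those of Elane ran from 3.31 to 3.47 and from 3.37 to 3.44, and those of Camp from 3.35 to 3.43 and from 3.30 to 3.55, near the filter level of 3.51. The mean over 5 tested eosinophil and mast cell markers of 7 listed ran from 5.32 to 5.65 in untreated and from 5.71 to 5.94 in DSS cells, without overlap, and Ccr3, an eosinophil receptor, was called in CD103+CD11b+ cells (1.31 ± 0.23, adjusted p 0.0262) and over the 3 subsets (1.03 ± 0.09, adjusted p 0.00185). Prg2 and Epx, the eosinophil granule genes of this list, did not pass the filter on low values. Markers of dendritic cell types were also called: beside Itgae, Clec9a, a cDC1 gene, in CD103-CD11b+ cells (means of 3.94 untreated and 5.34 after DSS, adjusted p 0.0451), and Sirpa, a gene of type 2 conventional dendritic cells, in CD103+CD11b- cells (0.83 ± 0.14, adjusted p 0.0215). The mean over 10 epithelial markers ran from 8.02 to 8.87 in untreated and from 7.75 to 8.42 in DSS cells. That over 7 tested monocyte markers of 8 listed ran from 7.53 to 8.04 in untreated and from 8.19 to 8.20 in DSS CD103-CD11b+ cells. In CD103+CD11b- cells it ran from 6.93 to 7.12 and from 7.22 to 7.44. In CD103+CD11b+ cells its ranges, 7.14 to 7.37 and 7.26 to 7.60, overlapped. The part of these genes in the DSS differences was not tested.

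Other genes of the pathway, from lists of its receptors, adaptors and targets that hold no member, differed between the subsets in both directions. The shares of all genes called, against which the counts of each list are to be read, were 10.3%, 6.86% and 4.11% in untreated cells and 8.53%, 5.96% and 1.58% after DSS, for CD103+CD11b- against CD103-CD11b+, CD103+CD11b- against CD103+CD11b+ and CD103+CD11b+ against CD103-CD11b+ cells. Of 19 tested receptor and ligand genes, 2 were lower in untreated CD103+CD11b- cells than in CD103-CD11b+ cells, Tnfrsf11a (-0.91 ± 0.17), which encodes the receptor RANK, and Tnfrsf9 (-0.69 ± 0.20), which encodes 4-1BB; that is near the share of all genes called. Against CD103+CD11b+ cells 1 was higher, Tnfrsf21 (1.13 ± 0.16), a death receptor, and 2 were lower, Tnfrsf9 (-0.99 ± 0.20) and Il18r1 (-0.76 ± 0.21). CD103+CD11b+ over CD103-CD11b+ cells gave 1 higher, Tnfsf9 (0.76 ± 0.18), and 2 lower, Tnfrsf21 and Tnfrsf11a. After DSS the counts higher and lower were 0 and 0 (limma), 2 and 0, and 0 and 1, in the same order, and Tnfrsf21 kept its call between the CD103+ subsets (1.14 ± 0.16). Their medians were 0.15, -0.12 and 0.21 in untreated and -0.04, -0.02 and -0.08 in DSS cells.

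Of 37 adaptor and kinase genes, 3 were higher and 4 lower in untreated CD103+CD11b- cells than in CD103-CD11b+ cells, beside 5.01% and 5.32% of all genes. The lower ones included Ripk3 (-1.43 ± 0.17), the kinase of necroptosis, Ticam2 (-1.30 ± 0.22), the TLR4 adaptor TRAM, and Tnip3 (-0.94 ± 0.24), another relative of Tnip1 with the opposite direction. Against CD103+CD11b+ cells the counts were again 3 and 4, with Tnip3 at -1.48 ± 0.24, and CD103+CD11b+ against CD103-CD11b+ cells gave 3 and 1, with Map3k1 at 0.94 ± 0.13 and Ripk3 at -1.37 ± 0.17. After DSS the counts were 2 and 5, 2 and 5, and 0 and 1. Peli1, a ubiquitin ligase of TLR signalling, was 0.84 ± 0.16 higher in CD103+CD11b- cells than in CD103+CD11b+ cells after DSS, and Tnip3 differed by -1.31 ± 0.24.

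Of 37 genes known as NF-kappaB targets, 4 were higher and 8 lower in untreated CD103+CD11b- cells than in CD103-CD11b+ cells, beside the same shares of all genes. Il12b, the p40 subunit of IL-12 and IL-23, was 2.41 ± 0.25 higher (adjusted p 1.43e-06) and Tap1, the peptide transporter of antigen presentation, 1.32 ± 0.17 higher. Ptgs2, the inducible cyclooxygenase, was at -1.48 ± 0.14 (adjusted p 5.51e-07) and the scavenger receptor gene Olr1 at -1.25 ± 0.39. The CD103+ subsets differed in 3 higher and 3 lower, and CD103+CD11b+ against CD103-CD11b+ cells in 2 higher and 1 lower. After DSS the counts were 4 and 8, 4 and 2, and 0 and 1. Their medians were -0.19, -0.21 and 0.05 in untreated and -0.16, -0.02 and -0.18 in DSS cells. With DSS, 1 target was called, Ptgs2, which rose in CD103+CD11b- cells by 0.75 ± 0.14 (adjusted p 0.0413), and no receptor, ligand, adaptor or kinase gene of these lists was called (limma).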

How the data were processed

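The values deposited by the authors are log2 expression from RMA, as the submitters' processing notes name it without a version. RMA corrects background, normalizes quantiles and summarizes each probe set, so only relative levels of 1 gene between arrays are read. Per the labels, 5 ng of total RNA was amplified and 5.5 ug of single-stranded DNA labelled. The genome build behind the probe sets was not given in the sources used here.

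Of 34760 probe sets, 21640 had 1 gene symbol each. Genes above the 40th percentile of all values (3.51) in at least 3 of 18 arrays were tested, 14003 in all. In R 4.3.3 (with data.table release 1.17.8), limma 3.58.1 fitted a mean for each of the 6 groups to all 18 arrays, two-sided, with Benjamini-Hochberg adjustment over all genes tested; DSS over the 3 subsets was fitted on experiment means. On simulated data for untreated CD103+CD11b- against CD103-CD11b+ cells, 95% of 100 genes changed by 1 log2 and 14% of 100 changed by 0.5 were called. No other gene of the 14003 was changed there, and the noise was independent between arrays. In the real comparison 10.3% of all genes were called, so the simulated shares do not give its power.

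The members and the gene lists were chosen with earlier results of these data known. Every member called is named, values are printed array by array for members called in at least 2 comparisons of 2 groups and for the NF-kappaB subunits, Tnf and Tnfaip3, and up to 4 genes of each other list are named in a comparison. Other probe sets of Birc2 and Cflar are given where their sign differs from that of the chosen one.

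The experiment number in the titles marks arrays of a shared experiment. Residuals of arrays of the same number correlated, across genes, at -0.03 to 0.32 in untreated cells (median 0.25, 8 of 9 pairs over 0.1) and at 0.11 to 0.31 after DSS (median 0.18), against medians of -0.12 and -0.13 for other pairs. The alternatives were other filters, centring, a repeated quantile normalization, another probe set rule, another estimate of the spread, only the groups compared, the experiment as a replicate block, and leaving out each array. Promoter sequences are RefSeq's on GRCm38.p6.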

Additional observations from a re-analysis of the deposited data

How the results depend on the processing

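Of 364 recomputed values for the 26 member calls, 308 kept the call, 56 lost it and 0 changed direction; 12 calls held throughout, all 4 of Tnip1 and all 4 of Tnfrsf1b among them. With only the arrays of the groups compared, the members called in untreated cells numbered 5 for CD103+CD11b- against CD103-CD11b+, 3 for CD103+CD11b- against CD103+CD11b+ and 0 for CD103+CD11b+ against CD103-CD11b+ cells. A trended, robust estimate of the spread gave 6 for the last, and a repeated quantile normalization gave 2 for the same subsets after DSS, while it ended the calls of Ikbkb and Traf2 in untreated cells and of Nfkbie after DSS. Fitting only the groups compared ended the untreated calls of Birc3, Ikbke and Traf5 for CD103+CD11b- against CD103-CD11b+. The same fit ended those of Tnfrsf1a and Traf2 within the CD103+ subsets, and of Ikbkb, Map3k14 and Relb within the CD11b+ subsets. After DSS the call of Nfkbie was lost. The untreated calls of Map3k14 and Relb for CD103+CD11b- against CD103-CD11b+ held under this fit. So did the untreated Traf5 call for CD103+CD11b- against CD103+CD11b+. With each array left out in turn, the counts ran from 5 to 8, 3 to 5 and 1 to 4 in untreated cells and from 4 to 6, 2 to 3 and 0 to 1 after DSS, and stayed at 0 in every comparison of DSS with untreated cells and in the 3 interactions.

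With the experiment as a replicate block, the subset comparisons called 8, 5 and 3 members in untreated cells and 5, 3 and 1 after DSS; Nfkbie was the 1 call lost (adjusted p 0.0569, limma). The gap between the non-canonical and canonical medians moved when Traf2, Birc2 and Birc3 joined the former, to 0.356 and 0.0064 for untreated CD103+CD11b- and CD103+CD11b+ against CD103-CD11b+ cells, and to 0.398 and 0.195 after DSS. With each array left out it ran from 0.276 to 0.535 for untreated CD103+CD11b+ against CD103-CD11b+ and from 0.101 to 0.321 between the untreated CD103+ subsets. The cause was not tested. The median standard error of a member's difference, 0.14 log2, and the signal over background, which these values do not hold, limit what small differences can be seen.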
